A study of Mus with 6 samples.

Results

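The unfolded protein and ATF4 stress genes are a set of 35 genes, chosen by symbol for their known roles in the ATF4, IRE1-XBP1 and ATF6 arms of the stress response. The choice was made with earlier results of these data known. All 35 were among the 10995 protein-coding genes of the deposited expression table. They were measured in CD4+ T cells whose VEGF-B had been neutralized by an antibody and in cells given IgG, which bears on what VEGF-B does in T cells after activation. The cells were naive CD4+ T cells from the spleens of wild-type mice. Both groups were activated with anti-CD3 (5 μg/mL), anti-CD28 (2 μg/mL) and IL-2 (100 U/mL), and were cultured for 3 days with either anti–VEGF-B or normal goat IgG at 1 μg/mL. Each group had 3 RNA-seq libraries. The age of the animals, and whether the libraries of a group came from separate mice or cultures, are not given in the sources used here. The p-values therefore measure only the spread between these libraries, which may be technical.

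The endoplasmic reticulum (ER) folds secreted and membrane proteins, and unfolded proteins in its lumen are sensed by PERK, IRE1 and ATF6. PERK, like the amino acid sensor GCN2, phosphorylates the translation factor eIF2, which lowers protein synthesis in general but favours translation of the transcription factor ATF4. IRE1 splices Xbp1 mRNA so that it encodes an active transcription factor, and ATF6 moves to the Golgi, where it is cut to release one. T cells enlarge their ER and take up more amino acids when activated, and many target genes are shared between the arms, so the arm given for each gene below is a textbook grouping.

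Levels are given as FPKM, fragments scaled to transcript length and to the mapped fragments of each library, which allow genes to be compared per length. Changes are log2 fold changes of FPKM + 1 for anti–VEGF-B against IgG. Adding 1 understates the change of genes at low levels. A change was called when its Benjamini-Hochberg adjusted p from limma, over the 8816 genes whose mean reached 1 FPKM, was under 0.05. The read depth behind the FPKM is unknown, since the table gives no counts. FPKM summed to between 260058 and 276622 per library. The 8 T cell markers summed to 517 to 558 FPKM under anti–VEGF-B and 528 to 613 under IgG, but of these Cd3e (−0.51 on the log2 scale, adjusted p = 0.0197 from limma) and Cd5 (−0.38, adjusted p = 0.0343) fell. Of the CD8 T cell markers, Cd8a lay between 0 and 0.182 FPKM and Cd8b1 between 2.27 and 4.51 FPKM, with overlapping groups. The part of these differences in the changes of the stress genes was not tested. Of the B cell and plasma cell markers the table held Cd79b (0.665 to 1.34 FPKM) and Sdc1 (0.726 to 1.22 FPKM) alone, and of the NK cell and erythroid markers none. The 3 listed myeloid markers of the 6 looked for (Lyz2, Csf1r and Cd14) summed to 3.95 to 5.11 FPKM under anti–VEGF-B and to 4.60 and 4.79 in IgG replicates 1 and 2, but to 19.8 in IgG replicate 3, so that counts are also given without that library.

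With anti–VEGF-B, more of the stress genes were lower than higher, and the arms differed in their counts. Of the 33 members tested, 12 fell (36.4%), 2 rose (6.06%) and 19 did not pass the threshold. Over all genes tested, 23.8% were lower and 4.87% were higher, 28.7% in either direction. The members that fell were Xbp1, the factor made active by IRE1, 8 genes of the ATF6 arm, and Sesn2, Aldh18a1 and Cth of the ATF4 arm. Those that rose were Atf4 itself and its target Trib3. The median log2 fold change was −0.22 over the tested members and −0.15 over all genes tested, a difference of −0.072. In bulk RNA, fewer cells of a type and less RNA per cell cannot be told apart. Without IgG replicate 3, where the myeloid markers were highest, 11 members were lower and 1 was higher, since Hyou1 (adjusted p = 0.0664 from limma) and Trib3 (0.0738) no longer passed. Of the 8773 genes tested in that fit, 1514 were lower and 328 higher.

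By arm, 3 of 13 tested ATF4 members fell (23.1%) and 2 rose (15.4%), and 1 of 7 IRE1-XBP1 members fell (14.3%) and none rose. Of the 13 ATF6 members, 8 fell (61.5%) and none rose. Over all genes tested the shares were 23.8% lower and 4.87% higher, so that the share of the ATF4 arm that fell was near that of all genes. At an unadjusted p under 0.05 in limma, the number higher was also 0 in the IRE1-XBP1 and ATF6 arms. The share of all genes at that unadjusted threshold is not given here, so those counts cannot be set against it. The median log2 fold change was −0.099 in the ATF4 arm, 0.011 in the IRE1-XBP1 arm and −0.35 in the ATF6 arm. Each median is set against −0.15 for all genes. The groups did not overlap for 16 members that were lower and 4 that were higher with anti–VEGF-B, where 38.5% and 10.5% of all genes tested were so separated.

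**Figure D1:**
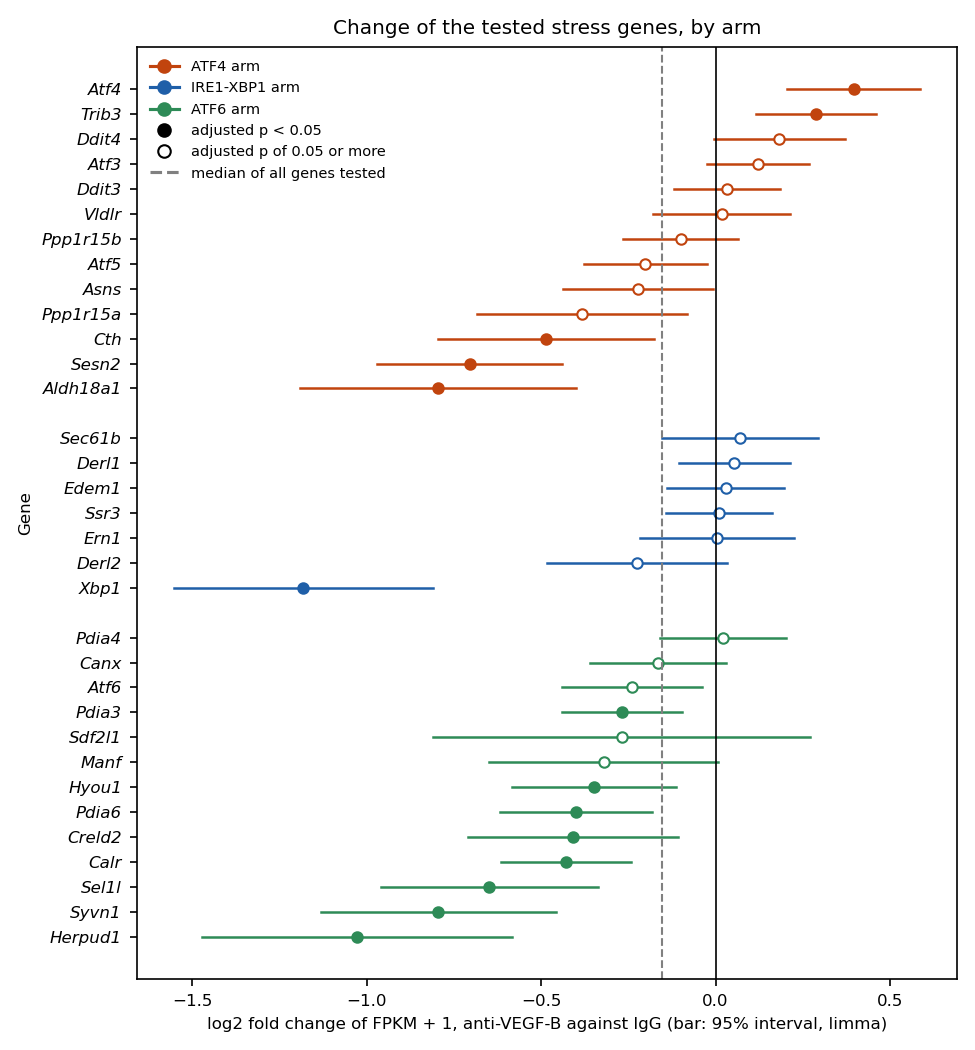
Log2 fold change of FPKM + 1 (x axis) for each tested stress gene (y axis), coloured by arm, with bars for the 95% interval from limma, filled points for adjusted p under 0.05 and a dashed line at the median of all genes tested. Xbp1 and Herpud1 lie farthest below 0 (−1.18 and −1.03), Atf4 and Trib3 lie above it (0.40 and 0.29), and most ATF6 genes lie below the dashed line at −0.15.

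The transcription factor at the head of the ATF4 arm, Atf4 (chromosome 15 of GRCm38, 80255184 to 80257540), was 1 of the 2 members that rose. Its levels were 756, 763 and 770.1 FPKM under anti–VEGF-B and 628, 526 and 590.2 FPKM under IgG. Every anti–VEGF-B library was above every IgG library, and the spread was wider with IgG, at 763 ± 7.09 against 581 ± 51.7 FPKM (mean ± SD, n = 3 each). On the log2 scale the change was 0.40 (SE 0.0842, 95% interval 0.21 to 0.59, adjusted p = 0.0127 from limma). The adjusted p was 0.0533 once anti–VEGF-B replicate 3 was dropped. ATF4 is controlled mainly by translation, which these RNA levels do not measure.

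Trib3 (chromosome 2, 152337422 to 152344032), a pseudokinase that ATF4 and CHOP induce and that holds ATF4 in check, was the other member that rose. It was at 44.7, 48.7 and 43.1 FPKM under anti–VEGF-B and at 38.2, 37.7 and 35.3 FPKM under IgG. The groups did not overlap. The change was 0.29 on the log2 scale (SE 0.0764, adjusted p = 0.0243 from limma), and of the 6 fits that left out a library it passed only without IgG replicate 1 (0.0351), with adjusted p of up to 0.0738 in the others.

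Ddit3 (chromosome 10, 127290774 to 127296288) encodes CHOP, the factor that drives death under prolonged ER stress. It stood at 77.3, 74.4 and 73.4 FPKM under anti–VEGF-B and 71.0, 75.8 and 73.2 FPKM under IgG. The ranges overlapped, and the log2 fold change was 0.034 with a 95% interval of −0.12 to 0.19 (adjusted p = 0.725 from limma). Whether the change of Ddit3 differed from those of Atf4 and Trib3 was not tested.

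Among the other regulators of the arm, Atf3, a stress-induced repressor and activator, was at 149.5 ± 3.37 FPKM under anti–VEGF-B and 137 ± 2.71 under IgG. The groups were separate, but the log2 difference of 0.12 did not pass (adjusted p = 0.178 from limma). Ddit4 (REDD1, an inhibitor of mTORC1) was at 821 ± 44.3 and 724 ± 47.7 FPKM, again separate, with 0.18 on the log2 scale (adjusted p = 0.124). Atf5, a related factor whose translation is also favoured when eIF2 is phosphorylated, lay the other way at 45.3 ± 3.17 and 52.2 ± 2.11 FPKM (−0.20, adjusted p = 0.0795).

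Sesn2 (chromosome 4, 132492032 to 132510501), which encodes the leucine sensor and mTORC1 inhibitor Sestrin2, fell. The anti–VEGF-B libraries were at 15.5, 16.1 and 12.9 FPKM and the IgG libraries at 24.3, 28.6 and 21.8 FPKM. The lowest IgG library was well above the highest anti–VEGF-B library. The log2 fold change was −0.70 (SE 0.118, 95% interval −0.97 to −0.44, adjusted p = 0.00711 from limma), and it passed without any one of the 6 libraries (0.00993 to 0.0266). Chac1, a glutathione-degrading enzyme and ATF4 target, was under the filter at 0.205, 0.174 and 0.302 FPKM under anti–VEGF-B and 0.460, 0.899 and 0.541 FPKM under IgG. In a fit with no filter its log2 fold change was −0.40 (adjusted p = 0.0286 from limma).

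The ATF4 targets that make amino acids were lower or unresolved. Their estimates lay below 0, as did the median of all genes (−0.15), whereas that of Atf4 lay above 0. Of the 3 of these genes that were tested, only Aldh18a1 passed under all of quantile normalization, median centring and cyclic loess normalization. Aldh18a1 (chromosome 19, 40550257 to 40588463), which encodes the first enzyme of proline synthesis, was at 4.11, 3.09 and 2.52 FPKM under anti–VEGF-B and 5.39, 8.20 and 5.54 FPKM under IgG. The groups were separate, with IgG replicate 2 the highest. It fell by 0.79 on the log2 scale (SE 0.175, adjusted p = 0.0137 from limma), but without anti–VEGF-B replicate 3 the adjusted p was 0.0515.

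Cth (chromosome 3, 157894248 to 157925077) encodes cystathionine gamma-lyase, which makes cysteine. It was at 1.66, 1.43 and 2.33 FPKM under anti–VEGF-B and 3.11, 3.11 and 2.50 FPKM under IgG. Anti–VEGF-B replicate 3 came close to IgG replicate 3, though the groups did not overlap. The log2 fold change was −0.49 (SE 0.137, adjusted p = 0.0295 from limma), and it missed the threshold without anti–VEGF-B replicate 1 or 2 or IgG replicate 1 or 2 (0.0656 to 0.0901) and after quantile normalization (0.239).

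Asns, asparagine synthetase, was at 27.2 ± 1.99 FPKM under anti–VEGF-B and 32.0 ± 3.40 under IgG. Its log2 difference of −0.22 did not pass the test (95% interval −0.44 to −0.0059, adjusted p = 0.108 from limma), although the groups were narrowly separate. Pycr1, which completes proline synthesis, was under the filter at between 0.0937 and 0.458 FPKM in all 6 libraries (−0.13 in the fit with no filter, adjusted p = 0.307).

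The phosphatase subunits and the receptor of the ATF4 arm did not pass. Ppp1r15a (GADD34), the inducible subunit that dephosphorylates eIF2 and ends the response, was at 113, 97.8 and 83.7 FPKM under anti–VEGF-B and 150.1, 109.9 and 126 FPKM under IgG. Anti–VEGF-B replicate 1 was above IgG replicate 2. The log2 difference was −0.38 with a 95% interval of −0.68 to −0.08 (adjusted p = 0.0589 from limma), and it passed after quantile normalization (0.048) and without anti–VEGF-B replicate 1 (0.0419) or IgG replicate 2 (0.0435). Its constitutive partner Ppp1r15b was at 41.7 ± 2.05 and 44.8 ± 1.70 FPKM (−0.099, adjusted p = 0.319). Vldlr, a lipoprotein receptor induced through PERK and ATF4, was at 15.7 ± 0.292 and 15.6 ± 1.42 FPKM (0.018, 95% interval −0.18 to 0.21, adjusted p = 0.892).

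**Figure D2:**
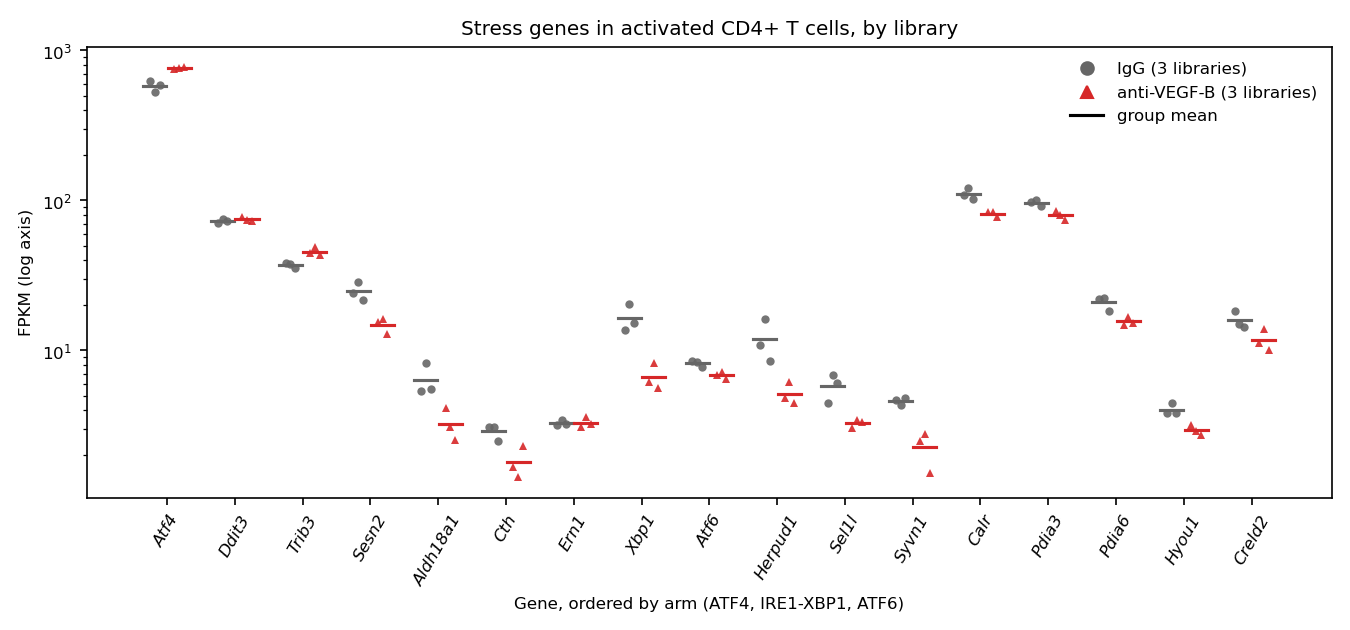
FPKM on a log axis in each IgG library (grey circles) and anti–VEGF-B library (red triangles), with group means as lines, for the 14 members that passed the test and for Ddit3, Ern1 and Atf6. Xbp1 and Herpud1 show the widest gaps between group means, whereas the points of Ddit3 and Ern1 overlap.

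In the IRE1-XBP1 arm, Xbp1 was the 1 member that passed. Xbp1 (chromosome 11, 5520659 to 5525893) was at 6.12, 8.26 and 5.58 FPKM under anti–VEGF-B and at 13.6, 20.4 and 15.2 FPKM under IgG. All anti–VEGF-B libraries were below all IgG libraries, and the mean with anti–VEGF-B (6.65 ± 1.42 FPKM) was 0.406 of that with IgG (16.4 ± 3.53 FPKM). The log2 fold change was −1.18 (SE 0.165, 95% interval −1.55 to −0.81, adjusted p = 0.00491 from limma), or −1.03 below the median of all genes. It passed without any one library (0.00825 to 0.0193) and under each scaling between libraries, where it was −0.98 to −1.04. An exact two-sided permutation test on Xbp1 alone gave p = 0.1, the smallest that 3 libraries against 3 allow. The value is for the gene as a whole and does not separate spliced from unspliced mRNA, so that IRE1 activity was not measured.

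Ern1 (chromosome 11, 106394650 to 106487852), which encodes IRE1 itself, was at 3.09, 3.59 and 3.24 FPKM under anti–VEGF-B and 3.19, 3.45 and 3.24 FPKM under IgG. The groups overlapped throughout. The log2 difference was 0.0034 (95% interval −0.22 to 0.22, adjusted p = 0.982 from limma), and after quantile normalization it was 0.24 (adjusted p = 0.0762).

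None of the 5 other members of the arm passed, nor did any have an unadjusted p under 0.05 in limma. Edem1, which hands misfolded glycoproteins to degradation, was at 35.2 ± 1.61 FPKM under anti–VEGF-B and 34.4 ± 1.69 under IgG (0.029 on the log2 scale, adjusted p = 0.788 from limma). Derl1, a channel component of ER-associated degradation, was at 29.3 ± 0.678 and 28.2 ± 0.994 FPKM (0.054, adjusted p = 0.581). Its relative Derl2 was low, at 1.58 ± 0.0409 and 2.03 ± 0.378 FPKM, and the log2 difference of −0.22 (adjusted p = 0.163) was 0.0063 after quantile normalization. In the translocation machinery that threads new proteins into the ER, Sec61b was at 88.3 ± 10.7 and 83.8 ± 5.91 FPKM (0.069, adjusted p = 0.619). Ssr3, a subunit of the associated TRAP complex, was at 90.4 ± 3.12 and 89.7 ± 2.43 FPKM (0.011, adjusted p = 0.912). Apart from Derl2 the groups of these genes overlapped.

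The ATF6 arm held most of the members that fell. Atf6 (chromosome 1, 170704674 to 170867771), the ER membrane factor, was at 6.82, 7.23 and 6.49 FPKM under anti–VEGF-B and 8.56, 8.44 and 7.79 FPKM under IgG. The groups were separate, but the log2 difference of −0.24 did not pass (95% interval −0.44 to −0.04, adjusted p = 0.0706 from limma), and it was −0.057 after quantile normalization.

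The 3 components of ER-associated degradation in this arm all fell. Herpud1 (chromosome 8, 94386438 to 94395377), an ER membrane protein that organizes the degradation complex, was at 4.84, 6.16 and 4.50 FPKM under anti–VEGF-B and 10.9, 16.2 and 8.57 FPKM under IgG. The IgG libraries were far apart from each other, but the lowest was above the highest anti–VEGF-B library. The log2 fold change was −1.03 (SE 0.197, 95% interval −1.47 to −0.58, adjusted p = 0.00950 from limma). Sel1l (chromosome 12, 91806043 to 91849157), the adaptor of the complex, was at 3.07, 3.46 and 3.35 FPKM and at 4.45, 6.84 and 6.09 FPKM. Syvn1 (chromosome 19, 6046576 to 6053712), its ubiquitin ligase HRD1, was at 2.48, 2.78 and 1.53 FPKM and at 4.65, 4.30 and 4.82 FPKM. Neither gene overlapped between groups. The log2 fold changes were −0.65 for Sel1l (SE 0.138, adjusted p = 0.0127) and −0.79 for Syvn1 (SE 0.149, adjusted p = 0.00903). All 3 genes passed without any one library and under quantile normalization, median centring and cyclic loess normalization.

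Of the 9 ER chaperones and oxidoreductases, 5 fell, by 0.27 to 0.43 on the log2 scale. None of these 5 passed under all of quantile normalization, median centring and cyclic loess normalization. Calr (chromosome 8, 84841850 to 84846934) encodes calreticulin, the lectin chaperone of the ER lumen. It was at 83.8, 84.0 and 77.5 FPKM under anti–VEGF-B and 109, 121 and 102 FPKM under IgG. The groups were widely separate, and the log2 fold change was −0.43 (SE 0.0828, 95% interval −0.62 to −0.24, adjusted p = 0.00961 from limma). It passed without any one library (0.0148 to 0.0427) but not after median centring (−0.23, adjusted p = 0.0650).

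Pdia6 and Pdia3 are protein disulfide isomerases, which form and reshuffle disulfide bonds. Pdia6 (chromosome 12, 17266545 to 17284770) was at 14.8, 16.8 and 15.2 FPKM under anti–VEGF-B and 21.9, 22.5 and 18.5 FPKM under IgG, and fell by 0.40 on the log2 scale (SE 0.0968, adjusted p = 0.0182 from limma). Pdia3 (chromosome 2, 121413775 to 121438687) was at 85.2, 80.4 and 74.7 FPKM and at 97.3, 100.3 and 91.9 FPKM, and fell by 0.27 (SE 0.0763, adjusted p = 0.0311). The groups were separate for both genes. Pdia6 missed the threshold without anti–VEGF-B replicate 1 or 3 or IgG replicate 2 (0.0546 to 0.0634), and Pdia3 without anti–VEGF-B replicate 2 or 3 or IgG replicate 1 or 2 (0.0581 to 0.121). Pdia6 also missed it after quantile normalization (0.0529) and median centring (0.139). Pdia3 was at −0.066 after median centring (adjusted p = 0.577 from limma).

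Hyou1 and Creld2 passed most narrowly. Hyou1 (chromosome 9, 44379490 to 44392369), a large chaperone related to HSP70, was at 3.21, 2.92 and 2.73 FPKM under anti–VEGF-B and 3.81, 4.48 and 3.82 FPKM under IgG (−0.35, SE 0.105, adjusted p = 0.0365 from limma). Creld2 (chromosome 15, 88819646 to 88826681), a secreted stress-induced ER protein, was at 11.3, 14.0 and 10.0 FPKM and at 18.4, 15.0 and 14.2 FPKM (−0.41, SE 0.133, adjusted p = 0.0468). The groups were separate, by little for Creld2. Of the 6 fits that left out a library, Hyou1 passed only the one without IgG replicate 1 (0.0453), with 0.0554 to 0.130 in the others. Creld2 missed the threshold without anti–VEGF-B replicate 1 or 3 or IgG replicate 1 or 2 (0.0831 to 0.153). Neither gene passed after quantile normalization, median centring or cyclic loess normalization. Under these, Hyou1 was at −0.11 to −0.15 (adjusted p of 0.220 to 0.352 from limma) and Creld2 at −0.21 to −0.29 (0.149 to 0.295).

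The remaining 4 of this group did not pass. Canx, calnexin, the membrane-bound partner of calreticulin, was at 86.8 ± 5.81 FPKM under anti–VEGF-B and 97.5 ± 8.26 under IgG (−0.16, 95% interval −0.36 to 0.03, adjusted p = 0.173 from limma). Pdia4, another disulfide isomerase, was at 29.9 ± 0.833 and 29.5 ± 2.33 FPKM (0.022, 95% interval −0.16 to 0.20, adjusted p = 0.854). Sdf2l1, a cofactor of the chaperone BiP, had the largest standard error of the members that did not pass, with 4.11, 7.73 and 5.00 FPKM against 5.55, 10.0 and 5.48 FPKM (−0.27, SE 0.240, adjusted p = 0.412). Replicate 2 was the highest of both groups for this gene. Manf, a secreted ER protein that stabilizes BiP complexes, was at 14.1 ± 3.01 and 17.6 ± 1.65 FPKM (−0.32, adjusted p = 0.124). The table gives Manf a span of 53668 bases, against 3186 in RefSeq on GRCm38.p6, and that span also holds Dcaf1 and Rbm15b, so that its value is uncertain. The span of Atf3 was 47744 bases, against 13038 in RefSeq. In RefSeq, 9 of the 35 members overlap another protein-coding gene, including Syvn1, Pdia3 and Pdia6 of those that passed, and how reads in the shared bases were assigned is not given in the sources used here.

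**Figure D3:**
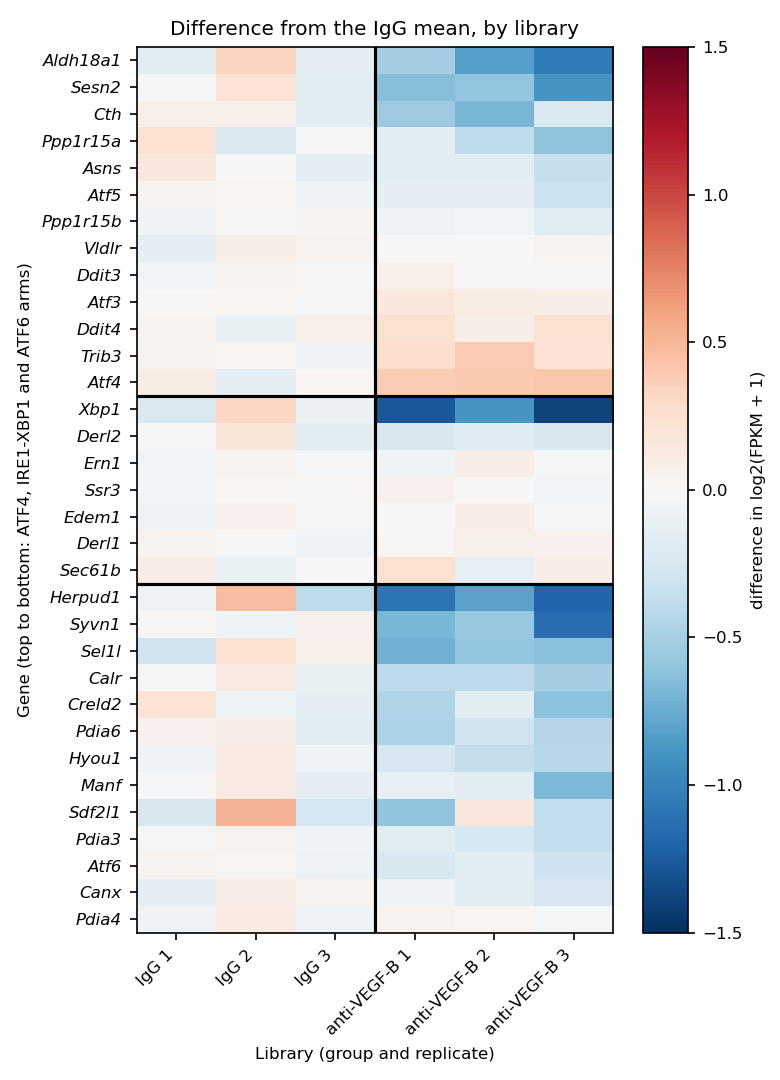
Difference in log2(FPKM + 1) from the IgG mean for each tested member (y axis, by arm) in each of the 6 libraries (x axis), blue for below and red for above. The 3 anti–VEGF-B columns are blue for most ATF6 genes and for Xbp1 and red for Atf4 and Trib3, and IgG 2 is red where IgG libraries stray most, as for Herpud1 and Sdf2l1.

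Library by library, the ATF6 arm stood below the IgG mean in each anti–VEGF-B library. Its median difference in log2(FPKM + 1) from the IgG mean was −0.39, −0.26 and −0.43 in anti–VEGF-B replicates 1, 2 and 3, and −0.018, 0.12 and −0.075 in the IgG libraries. The same median over all genes tested was −0.14, −0.13 and −0.18, and −0.049, 0.075 and −0.028. The median of the 13 listed ATF6 members was thus below that of all genes in the 3 anti–VEGF-B libraries. IgG replicate 2 was above the other IgG libraries for both. These medians come from the same values as the counts by arm, so they add no separate support. The IRE1-XBP1 arm had medians of 0.0015, 0.0088 and −0.017 with anti–VEGF-B, near 0 and above the medians of all genes. The ATF4 arm was at −0.077, −0.043 and −0.18, with the lowest value in replicate 3.

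Most genes in these libraries were lower with anti–VEGF-B, and by how much depended on their level. The median log2 fold change was −0.22 over the 3889 genes at 1 to 5 FPKM, −0.14 over the 3089 at 5 to 20, −0.027 over the 1484 at 20 to 100, and 0.099 over the 354 above 100. The share that was lower was 27.3% in the first range and 5.93% in the last, and the share that was higher was 1.98% and 16.7%. Atf4 lay in the highest range and Trib3 in the one below it. Against the median of their ranges the log2 fold change was 0.30 for Atf4, 0.31 for Trib3 and −1.04 for Xbp1. The median difference from the range medians was −0.12 over the tested members, −0.073 in the ATF4 arm, 0.055 in the IRE1-XBP1 arm and −0.24 in the ATF6 arm. The part of this trend in the counts of members was not tested.

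**Figure D4:**
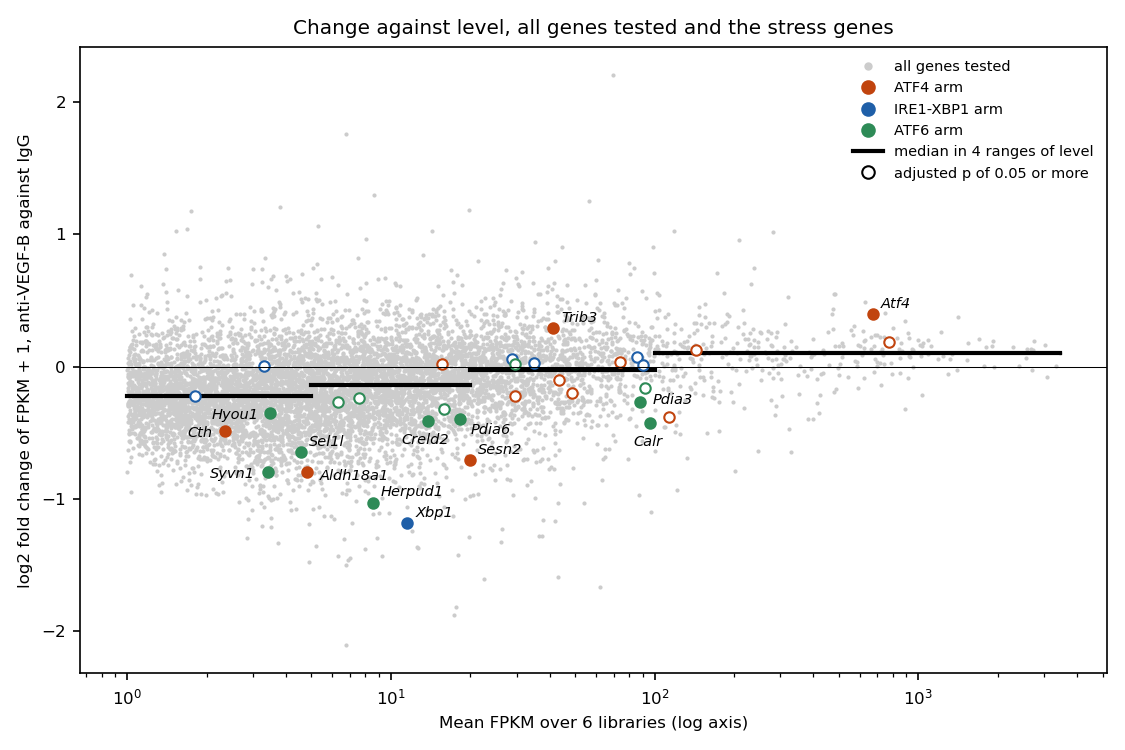
Log2 fold change of FPKM + 1 (y axis) against mean FPKM over the 6 libraries (log x axis) for all genes tested (grey) and the stress genes (coloured by arm, filled where adjusted p is under 0.05), with black lines at the median of 4 ranges of level. The medians climb from −0.22 at 1 to 5 FPKM to 0.099 above 100 FPKM; Xbp1, Herpud1 and Sesn2 lie far below their lines, and Atf4 and Trib3 above.

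Scaling the libraries to each other changed the split of the calls. As deposited, 12 members were lower and 2 higher. After quantile normalization they were 9 and 2, where 10.4% and 9.98% of all genes were lower and higher, and the median of all genes was 0.0077. After cyclic loess normalization they were 10 and 2 (10.6% and 9.66% of all genes). After median centring they were 6 and 7 (9.15% and 15.5% of all genes), with Atf3, Atf4, Ddit3, Trib3, Derl1, Edem1 and Pdia4 higher. Atf4, Trib3, Sesn2, Aldh18a1, Xbp1, Herpud1, Sel1l and Syvn1, 8 of the 14 members called, passed in the same direction under each of these 3 scalings. Of those, Sesn2, Xbp1, Herpud1, Sel1l and Syvn1 also passed without any one library. Single libraries moved the counts: without anti–VEGF-B replicate 3, 7 members were lower and 0 higher (7.92% and 1.84% of all genes). In that fit 2 were higher at an unadjusted p under 0.05 in limma, where the share of all genes is not given. Leaving out IgG replicate 2 gave 8 lower and 1 higher (12.3% and 2.95% of all genes).

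A fit that took each gene's variance from its own 6 libraries, without limma's moderation across genes, called none of the members, with adjusted p of 0.0732 to 0.167 for the 14. At an unadjusted p under 0.05 that fit had 13 members lower and 3 higher, where the share of all genes is not given here. It called 6 genes lower and 6 higher among all 8816 (0.0681% each).

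**Figure D5:**
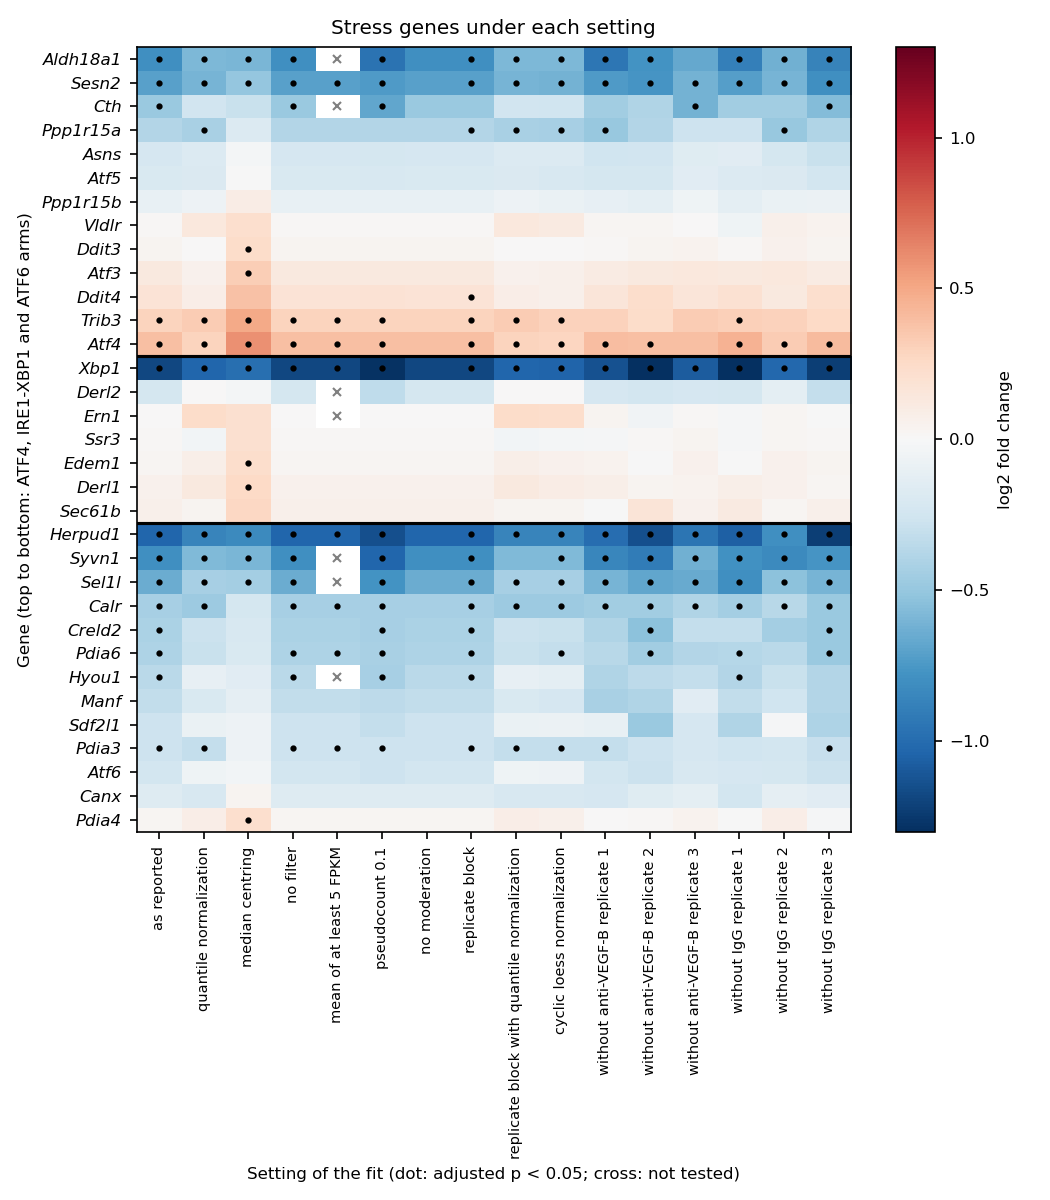
Log2 fold change (colour) of each tested member (y axis, by arm) under each setting of the fit (x axis), with a dot where adjusted p is under 0.05 and a cross where the gene was not tested. Xbp1 and Herpud1 carry a dot in every column except the one without moderation, and median centring adds red to both the ATF4 and IRE1-XBP1 arms.

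Other genes of the same pathways were taken from a list of 75 chosen by known function. Of these, 69 were in the table and 66 were tested, of which 15 fell (22.7%) and 4 rose (6.06%), against 23.8% and 4.87% of all genes. Their median log2 fold change was −0.19. By arm, 7 of 26 in the ATF4 pathway fell (26.9%) and 2 rose (7.69%). In the IRE1-XBP1 pathway, 3 of 19 fell (15.8%) and 1 rose (5.26%). In the ATF6 and folding pathway, 5 of 21 fell (23.8%) and 1 rose (4.76%). The share of this last list that fell was near that of all genes (23.8%), whereas 61.5% of the 13 ATF6 members fell.

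In the ATF4 pathway, Cebpb, a factor that pairs with ATF4 and CHOP, rose most. It ranged from 70.5 to 85.1 FPKM under anti–VEGF-B and from 28.2 to 35.8 FPKM under IgG. The groups were far apart (1.25 on the log2 scale, adjusted p = 0.00279 from limma). Slc3a2, the heavy chain of amino acid transporters, was also higher, at 59.7 ± 5.47 against 47.3 ± 3.13 FPKM (0.33, adjusted p = 0.0257), whereas its partner Slc7a5, the LAT1 light chain, was lower, at 10.3 ± 1.69 against 19.2 ± 6.08 FPKM (−0.80, adjusted p = 0.0175). Tnfrsf10b, a death receptor and CHOP target, was lower at 5.43 ± 0.769 against 10.6 ± 1.17 FPKM (−0.85, adjusted p = 0.00491), and so was Eif2ak2, the eIF2 kinase PKR, at 0.613 ± 0.0962 against 1.60 ± 0.675 FPKM (−0.66, adjusted p = 0.0237). Slc7a5 missed the threshold without anti–VEGF-B replicate 3 (0.0611). Slc3a2 missed it without anti–VEGF-B replicate 1 or 2 or IgG replicate 2 or 3 (0.0545 to 0.0787). Eif2ak2 missed it without anti–VEGF-B replicate 1, 2 or 3 or IgG replicate 3 (0.0503 to 0.0654). The mean of Eif2ak2 over the 6 libraries was 1.11 FPKM, little above the filter of 1 FPKM. Without IgG replicate 2 it was not tested. None of the 3 scalings between libraries kept the call of Eif2ak2 (adjusted p of 0.0502 to 0.0772 from limma).

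The kinases that feed ATF4 did not pass. Eif2ak3, which encodes PERK, was at 15.5 ± 0.971 FPKM under anti–VEGF-B and 13.6 ± 0.780 under IgG (0.18, adjusted p = 0.134 from limma), and passed after quantile normalization (0.32, adjusted p = 0.0421). Eif2ak4, which encodes GCN2, was at 5.44 ± 0.695 and 5.26 ± 0.134 FPKM (0.035, adjusted p = 0.820).

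In the IRE1-XBP1 pathway, the BiP co-chaperone Dnajc3 fell, at 2.76 ± 0.221 against 5.02 ± 0.912 FPKM under IgG (−0.67, adjusted p = 0.00875 from limma). The translocon-associated subunits Ssr2 and Ssr1 were called in opposite directions, at 9.49 ± 1.97 against 15.1 ± 0.187 FPKM for Ssr2 (−0.63, adjusted p = 0.0104) and 20.1 ± 1.40 against 15.8 ± 1.73 FPKM for Ssr1 (0.33, adjusted p = 0.0369). Spcs3, a signal peptidase subunit, fell at 23.4 ± 1.57 against 33.7 ± 5.51 FPKM (−0.50, adjusted p = 0.0147). Ssr1 passed only without IgG replicate 3 among the fits that left out a library (0.0515 to 0.130 in the others), and Spcs3 missed the threshold without anti–VEGF-B replicate 3 (0.0566).

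In the ATF6 and folding pathway, the ATF6 relative Atf6b was at 1.26 ± 0.331 FPKM under anti–VEGF-B and 3.37 ± 0.891 under IgG (−0.94, adjusted p = 0.00756 from limma). The co-chaperone Dnajb11 was at 4.07 ± 0.487 and 6.97 ± 0.921 FPKM (−0.65, adjusted p = 0.00840), and the reductase Dnajc10 at 2.71 ± 0.330 and 4.67 ± 1.13 FPKM (−0.60, adjusted p = 0.0190). Vcp, the ATPase that extracts proteins from the ER for degradation, was at 32.2 ± 2.11 and 42.6 ± 5.05 FPKM (−0.39, adjusted p = 0.0193). P4hb, the main disulfide isomerase, went the other way at 884 ± 19.0 and 724 ± 33.0 FPKM (0.29, adjusted p = 0.0222). Dnajc10 missed the threshold without anti–VEGF-B replicate 3 (0.0699), Vcp without anti–VEGF-B replicate 1 or 3 or IgG replicate 2 (0.0506 to 0.0700), and P4hb without anti–VEGF-B replicate 1 or 3 or IgG replicate 3 (0.0665 to 0.0939).

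The main chaperones of the ER lumen did not pass. Hspa5, which encodes BiP, was at 85.9, 93.4 and 39.9 FPKM under anti–VEGF-B and 108, 114 and 50.9 FPKM under IgG. Replicate 3 was far below the other libraries in both groups, so that the groups overlapped and the interval was wide (−0.32, 95% interval −1.12 to 0.49, adjusted p = 0.517 from limma). The log2 difference was 0.064 when anti–VEGF-B replicate 3 was left out and −0.69 when IgG replicate 3 was left out. For each replicate number, Hspa5 was lower in the anti–VEGF-B library than in the IgG library. With the replicate number as a block it passed (adjusted p = 0.0141 from limma), but whether the numbers pair the libraries is not known. Hsp90b1, which encodes GRP94, was at 148 ± 7.33 and 156 ± 0.960 FPKM (−0.077, adjusted p = 0.410). Of the proteases that cut ATF6, Mbtps1 was at 8.84 ± 0.841 and 7.97 ± 0.0941 FPKM (0.13, adjusted p = 0.308), and Mbtps2 was under the filter at 0.688 ± 0.0553 and 0.907 ± 0.286 FPKM.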

How the data were processed

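RNA was measured in 3 anti–VEGF-B and 3 IgG libraries of CD4+ T cells activated for 3 days. The authors deposited 1 table of FPKM values for protein-coding genes, made from stranded KAPA libraries with hisat2, StringTie and Ballgown on GRCm38 (mm10, also named in the submitters' processing notes). The table is named as raw data, but its values are not whole numbers, so no count test was used. Low values (under 0.3 FPKM) were searched for steps of 1 read: at most 1.40% of such genes shared a ratio between libraries, whole reads could not be recovered, and depth is unknown. The 6 columns of values were matched to samples by their names. StringTie assigns reads that could come from several overlapping genes by its own model, which can move the values of such genes.

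Values were tested as log2(FPKM + 1) with limma 3.58.1 in R 4.3.3 (trend and empirical Bayes), as deposited, with no block, over the 8816 genes whose mean reached 1 FPKM, with Benjamini-Hochberg adjustment over all of them and a threshold of 0.05. Standard errors and 95% intervals are those of limma. The members and gene lists were chosen with earlier results of these data known. All members are named. Values by library are given for members past the threshold and for Atf4, Ddit3, Xbp1, Ern1 and Atf6. Of the other pathway genes, Hspa5, Hsp90b1, Eif2ak3, Eif2ak4, Mbtps1 and Mbtps2 and up to 5 per list with the lowest adjusted p past the threshold are named. Values by library for Ppp1r15a, Sdf2l1, Chac1 and Hspa5 were added after they were seen. Alternatives were quantile normalization, median centring, no filter, a mean of at least 5 FPKM, a pseudocount of 0.1, no moderation, a replicate block (also with quantile normalization) and leaving out each library. Cyclic loess normalization and medians within ranges of level were added after seeing the data. The fit was tested on simulated data. Spans were compared with RefSeq on GRCm38.p6.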

Additional observations from a re-analysis of the deposited data

How the results depend on the processing

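Of the numbers of members called, 12 were lower and 2 higher as reported. They were 6 and 7 after median centring. At a mean of at least 5 FPKM 6 were lower, as were 989 of all 4927 genes tested (Aldh18a1, Cth, Sel1l, Syvn1 and Hyou1 were not tested). They were 0 and 0 without moderation, and 7 to 11 lower and 0 to 2 higher when each library was left out. The lowest counts with a library left out, 7 lower and 0 higher, came without anti–VEGF-B replicate 3, where 7.92% and 1.84% of all genes were called. In that fit 2 members were higher at an unadjusted p under 0.05 in limma, where the share of all genes is not given. Over all genes, 10.4% were lower and 9.98% higher after quantile normalization, and 9.15% and 15.5% after median centring. At a mean of at least 5 FPKM, 989 of 4927 were lower and 342 higher. With a library left out, 702 to 2074 were lower and 163 to 395 higher, of 8712 to 8864. Without moderation the shares were 0.0681% each. The counts by arm are to be read against these. The ATF4 arm had 1 lower at a mean of at least 5 FPKM, 4 higher after median centring, 0 and 0 without moderation, and 0 to 2 higher with a library left out. The IRE1-XBP1 arm had 2 higher after median centring and 0 lower without moderation. The ATF6 arm had 5 lower after quantile normalization, 3 lower and 1 higher after median centring, 4 lower at a mean of at least 5 FPKM, 0 lower without moderation and 4 to 7 with a library left out. The median over members was −0.11 with quantile normalization, −0.023 with median centring, −0.12 with cyclic loess and −0.12 against the medians of the level ranges. The same values for all genes apply to the other pathway genes. Of other pathway genes, 8 were lower after quantile normalization, median centring or at a mean of at least 5 FPKM, 11 higher after median centring, 0 and 0 without moderation, and 5 to 17 lower and 1 to 3 higher with a library left out. The cause was not tested. Without moderation, limma's ordinary fit had 13 members lower and 3 higher, and 19 and 6 other pathway genes, at an unadjusted p under 0.05. The share of all genes at that threshold is not given here.

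Direction reversed for Ppp1r15b (0.10), Canx (0.037) and Hsp90b1 (0.12) after median centring, for Derl2 after quantile (0.0063) and cyclic loess normalization (0.0078) and for Ssr3 (−0.037 and −0.029). With a library left out the log2 difference ranged across 0 for Vldlr (−0.055 to 0.062), Ern1 (−0.044 to 0.040), Edem1 (−0.0092 to 0.059), Sec61b (−0.0097 to 0.16), Ssr3 (−0.014 to 0.035), Pdia4 (−0.014 to 0.084), Eif2ak4 (−0.024 to 0.13) and Hspa5 (−0.69 to 0.064).

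Libraries of the same number in both groups had deviations that correlated at −0.030, 0.11 and 0.089 over 8816 genes. The value of 0.11, for the replicates numbered 2, was the highest of any such correlation. Replicates 1 and 3 of anti–VEGF-B correlated best with IgG libraries of another number (0.057 with IgG replicate 2 and 0.0997 with IgG replicate 1). Deviations from a mean of 3 libraries depend on each other, so these values cannot decide whether the numbers pair the libraries. With the replicate number as a block, 12 members were lower and 3 higher (Ddit4 and Ppp1r15a passed and Cth did not), and Hspa5 passed (adjusted p = 0.0141 from limma). Of all 8816 genes, 2109 were lower and 469 higher in that fit. With the block and quantile normalization, 8 members were lower and 2 higher, as were 816 and 786 of all genes. There the ATF6 arm had 4 lower, and Syvn1 did not pass. The median over members was −0.11, Derl2 was 0.0063 and Ssr3 −0.037. No counts were given, so the depth that limits the low genes is unknown.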
